A study of Mus musculus with 40 samples.

Results

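The acute response of the virgin mammary gland to prolactin was followed by comparing control glands taken 2 h after an injection of the hormone with control glands taken before it. Every gene with at least 1 FPKM in either group was a member of the comparison, which gave 12868 of the 22552 genes in the deposited table. FPKM are fragments counted per kilobase of transcript and scaled to all mapped fragments, so levels of different genes can be set side by side per length. The group after prolactin held 2 RNA libraries and the group before prolactin held 2, out of 31 RNA libraries in the series.

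Both control groups came from 12-week-old mature virgin females on an outbred background that carried the transgene MMTV-Cre, in which a mouse mammary tumour virus promoter drives the recombinase Cre. Each mouse was anaesthetised with avertin at estrus, and its left inguinal (number 4) fat pad was removed without the lymph node and served as the gland before prolactin. After recovery, prolactin was injected into the peritoneum at 5 µg per g of body weight, and the right number 4 fat pad was collected 2 h later. The hormone, the side of the body, the time between the collections, the anaesthesia and the surgery therefore changed together. Their parts cannot be told apart. No group of the series is labelled as injected without hormone. Virgin Ezh2 knockout (KO) mice of the same age and background, labelled Ezh2f/f;control, went through the same steps with 2 libraries after and 2 before prolactin. In these mice Ezh2, a methyltransferase of Polycomb repressive complex 2 (PRC2), was to be deleted by Cre in mammary epithelium, while the RNA came from the whole fat pad, and they are used here only to set a separate set of mice beside the controls.

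Prolactin is a pituitary hormone that drives the growth of milk-secreting alveoli and the making of milk. It binds a receptor that has the kinase JAK2 attached, and JAK2 phosphorylates STAT5A and STAT5B, which pair, enter the nucleus and bind DNA at a palindromic motif. Among their targets are the casein genes and the genes of the CIS and SOCS proteins, which bind the receptor or JAK2 and shut the signal down.

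Each group is represented by 1 value per gene, the authors' value for the whole group. No SD, n, p-value or test can therefore be attached to any value below, and no difference has a replicate check. A difference is the log2(FPKM + 1) value after prolactin minus that before (the added 1 makes differences of weakly expressed genes smaller), and a fold is the ratio of FPKM without the added 1. A gene is counted as higher or lower where the difference was 1 or more in size, which is a 2-fold difference for a well expressed gene and is a description, not a test. Folds against values well under 1 FPKM are imprecise, since the depth behind them is unknown. The glands were sequenced as whole tissue, in which fewer cells of a type and less RNA per cell cannot be told apart.

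The labelled tissue was checked with marker genes. The luminal keratin gene Krt18 stood at 479 FPKM after and 429 before prolactin, and the adipocyte gene Adipoq, which encodes adiponectin, stood at 2657 and 3207. RNA of epithelium and of fat was thus in both control groups, while single libraries could not be checked. Ezh2 itself stood at 6.74 FPKM after and 4.98 before prolactin in control glands, and at 4.64 after and 5.55 before in Ezh2 KO glands. In whole glands, the level of Ezh2 therefore does not separate the genotypes. Ezh1, its paralog, stood at 14.6 and 14.7 FPKM in control glands after and before prolactin. The 17 lymphocyte and lymph node markers summed to 373 FPKM in control glands after prolactin and 41.3 before, but to 29.6 in Ezh2 KO glands after prolactin and 425 before. The protocol states removal of the lymph node for the gland taken first. Of these markers 16 were compared, and each was higher after prolactin in control glands by 1.91 to 4.27 and lower in Ezh2 KO glands. The part of lymphoid tissue in the other differences was not tested. Values in Ezh2 KO glands are given below for many results, and a result given without them may still move with these markers. From the marker values alone, unevenly removed lymph nodes and exchanged labels cannot be told apart, and neither was tested. Not all genes moved with these markers. Of 679 genes higher in control glands, 256 were also higher in Ezh2 KO glands and 210 were lower. Mt2, for example, stood at 5677 FPKM after and 133 before in control glands and at 3609 and 121 in Ezh2 KO glands.

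The promoters of 6 STAT5 target or milk protein genes named below are shown as RefSeq gives them on the mouse assembly GRCm38.p6, each from 250 bases before to 50 bases after a transcription start, because prolactin acts on such genes through STAT5. Capitals mark the STAT5 motif TTCNNNGAA, which reads the same on both strands, and positions count from 1 at the first transcribed base. The Cish window is chr9:107296409-107296708 on the plus strand, with motifs that begin at bases 1 and 12. The Socs3 window is chr11:117969317-117969616 on the minus strand, with a motif that begins at base -154. For Csn2 the window is chr5:87699376-87699675 on the minus strand, with the motif at -93. For Csn1s1 it is chr5:87665958-87666257 on the plus strand, with the motif at -100. Glycam1 has its window at chr15:103565032-103565331 on the minus strand, with the motif at -145. Socs1 is shown beside them, with its window at chr16:10785487-10785786 on the minus strand, where these letters do not occur. The 6 genes were picked by hand, and other higher targets such as Socs2 and Pim1 are not shown. How many of the 6 hold the motif is therefore not a share for such genes.
Cish: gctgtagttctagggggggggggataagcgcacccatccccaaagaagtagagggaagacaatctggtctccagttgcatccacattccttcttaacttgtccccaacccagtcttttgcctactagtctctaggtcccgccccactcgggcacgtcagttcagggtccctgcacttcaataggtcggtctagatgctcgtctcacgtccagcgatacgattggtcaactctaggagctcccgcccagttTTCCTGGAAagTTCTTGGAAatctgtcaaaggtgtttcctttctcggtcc
Socs3: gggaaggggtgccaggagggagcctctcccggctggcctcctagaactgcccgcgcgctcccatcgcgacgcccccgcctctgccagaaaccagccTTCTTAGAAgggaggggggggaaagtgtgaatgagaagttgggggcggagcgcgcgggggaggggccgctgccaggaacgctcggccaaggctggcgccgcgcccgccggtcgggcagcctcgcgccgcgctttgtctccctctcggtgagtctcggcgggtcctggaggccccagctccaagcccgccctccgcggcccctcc
Csn2: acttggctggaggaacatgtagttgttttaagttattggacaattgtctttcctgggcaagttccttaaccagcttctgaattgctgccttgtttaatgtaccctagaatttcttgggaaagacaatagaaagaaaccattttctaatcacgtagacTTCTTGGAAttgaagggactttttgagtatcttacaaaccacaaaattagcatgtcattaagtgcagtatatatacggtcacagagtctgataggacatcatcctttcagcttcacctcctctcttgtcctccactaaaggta
Csn1s1: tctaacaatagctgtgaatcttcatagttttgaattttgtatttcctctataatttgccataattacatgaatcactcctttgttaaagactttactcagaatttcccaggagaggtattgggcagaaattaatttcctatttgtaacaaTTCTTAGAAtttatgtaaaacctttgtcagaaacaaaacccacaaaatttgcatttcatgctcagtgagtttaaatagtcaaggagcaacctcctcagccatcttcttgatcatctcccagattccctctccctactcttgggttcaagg
Glycam1: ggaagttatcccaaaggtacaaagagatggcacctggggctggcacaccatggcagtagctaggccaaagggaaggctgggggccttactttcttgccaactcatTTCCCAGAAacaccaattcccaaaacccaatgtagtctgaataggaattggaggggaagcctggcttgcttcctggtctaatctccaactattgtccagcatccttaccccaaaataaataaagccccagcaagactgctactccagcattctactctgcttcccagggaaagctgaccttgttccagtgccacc
Socs1: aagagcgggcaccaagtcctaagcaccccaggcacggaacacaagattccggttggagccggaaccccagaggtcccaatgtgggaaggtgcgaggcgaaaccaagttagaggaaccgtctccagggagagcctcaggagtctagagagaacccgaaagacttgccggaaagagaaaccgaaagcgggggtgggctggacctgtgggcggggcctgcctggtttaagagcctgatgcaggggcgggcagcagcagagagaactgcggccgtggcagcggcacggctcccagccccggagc

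The motif was then counted over promoters of the same length, though not those of every chromosome. Of 10071 compared genes with such a promoter, 837 (8.31%) held TTCNNNGAA in at least 1 promoter window. Among genes that were higher after prolactin it was held by 69 of 483 (14.3%), and among genes that were lower by 12 of 152 (7.89%). Genes higher in both genotypes held it in 33 of 197 (16.8%), and genes that were higher in control but lower in Ezh2 KO glands in 23 of 152 (15.1%). The share was thus about as large among genes that moved with the lymphoid markers. The cyclic AMP response element TGACGTCA was found in 2.48% of the higher genes, 1.32% of the lower genes and 3.52% of all compared genes. The hexamer AGAACA of the glucocorticoid receptor, searched on both strands, was found in 20.7% of the higher genes, 21.1% of the lower genes and 15.1% of all compared genes. Genes higher in both genotypes held it in 30 of 197 (15.2%), against 43 of 152 (28.3%) of those higher in control but lower in Ezh2 KO glands. The CArG box, the motif of serum response factor, was found in 2.90% of the higher, 1.97% of the lower and 1.63% of all compared genes. A match is a run of letters and not a bound site, and genes with more promoters in the table have more chances of a match (1.31 promoters per gene among the higher, 1.36 among the lower and 1.28 among all).

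Over the whole table more genes were higher than lower after prolactin. Of the 12868 genes, 679 (5.28%) were higher by 1 log2 unit or more and 245 (1.9%) were lower, with 161 higher and 44 lower by 2 log2 units or more. The median difference was 0.00 and the middle range from the lower to the upper quartile ran between -0.21 and 0.24, so most genes stood at nearly the same level in both groups. The summed FPKM was 701313 after prolactin and 618728 before, 13.3% more. Of this excess the small RNA gene Mir762 gave 9261 FPKM, the adipocyte gene Fabp4 gave 6507 and the metallothionein genes Mt2 and Mt1 gave 5544 and 5429. Mir762 was listed at 0 before prolactin. FPKM are per kilobase, so few fragments of so short a gene give a large value, and its level is uncertain. Rescaling both groups to a common sum moved the median of all genes to -0.16 and gave 532 higher and 370 lower genes, so that higher genes made up 59.0% of the counted genes in place of 73.5%. The excess of higher genes was present at every level of expression. Of 3376 genes whose higher group had 1 to 5 FPKM, 5.27% were higher and 1.30% lower, and of 1060 genes above 100 FPKM, 7.74% were higher and 2.26% lower. Counts of the gene lists below are read against 5.28% higher and 1.9% lower in control glands and against 2.92% higher and 4.17% lower among the same genes in Ezh2 KO glands. Of the counted genes, 627 of the higher and 210 of the lower ones were protein-coding, and 33 and 28 were small RNA genes. In 1 of the groups 23 of the higher and 25 of the lower genes were listed at 0.

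**Figure D1:**
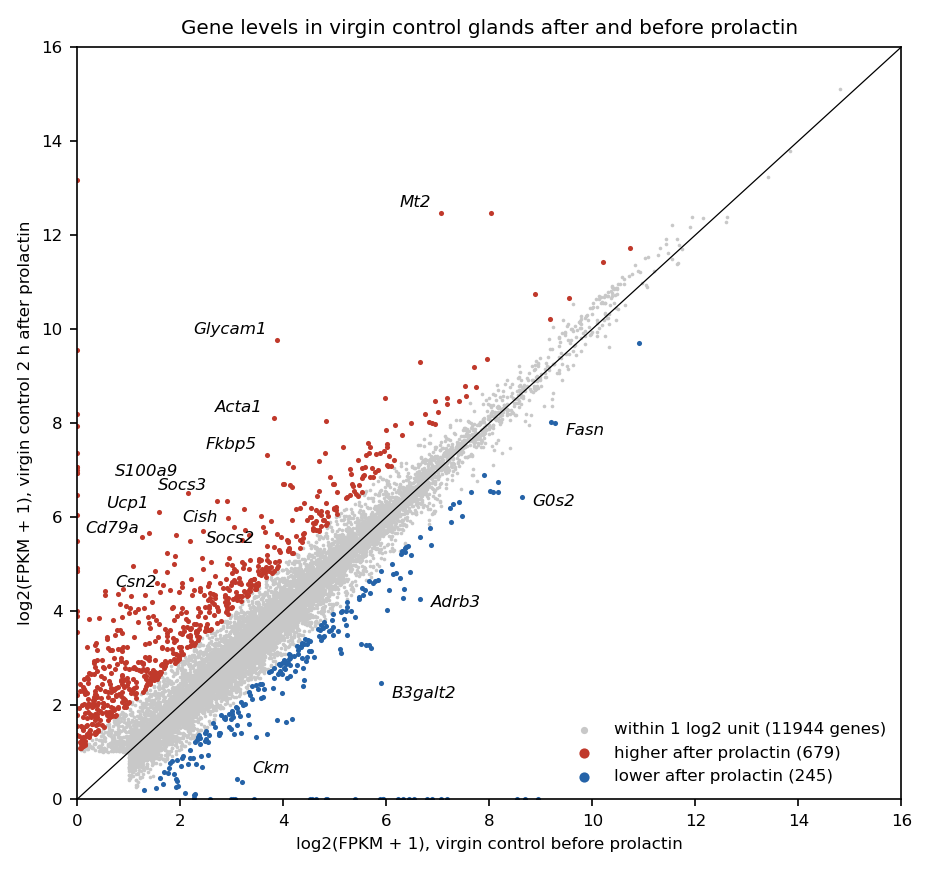
Each point is 1 of the 12868 compared genes, with its log2(FPKM + 1) value in virgin control glands before prolactin on the horizontal axis and 2 h after prolactin on the vertical axis. The 679 genes in red lie 1 unit or more above the diagonal, the 245 in blue lie as far below it, and Mt2, Glycam1 and Fkbp5 stand far above it.

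The protein-coding genes with the largest differences came from several kinds of cells. Among genes with at least 5 FPKM in either group, the 15 highest included Glycam1, Mt2, Ucp1, Mt1, S100a9, Saa3, Acta1, Cd79a, Faim3, Csn2, Cd79b, Fkbp5, Socs3 and Nr4a3. These include a milk protein gene (Csn2), a feedback inhibitor gene of JAK2 signalling (Socs3), metallothioneins (Mt1, Mt2) and a neutrophil gene (S100a9). The uncoupling protein gene of brown fat (Ucp1) and B cell receptor subunits (Cd79a, Cd79b) are also among them. Of these genes, Glycam1, Cd79a, Faim3 and Cd79b were lower by more than 2 in Ezh2 KO glands. The 15 lowest were B3galt2, Ckm, Tnnt3, Cd248, Irs3, Spon2, Cd209f, Adrb3, Gpr81, Cd209g, G0s2, Lhfpl2, Smpd3, Aplnr and Rasd1. B3galt2, which encodes a galactosyltransferase, stood at 4.51 FPKM after prolactin and 58.6 before, 13.0-fold lower after. Cd248, a gene of stromal fibroblasts and pericytes that encodes endosialin, stood at 8.30 FPKM after and 50.9 before. Gpr81, the lactate receptor of adipocytes, stood at 8.64 after and 48.0 before. Each of these 15 genes was also lower in Ezh2 KO glands, by 0.81 to 2.32 log2 units, with Gpr81 alone short of 1.

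The receptor and its signalling proteins differed little. Prlr, the prolactin receptor gene, stood at 61.7 FPKM after prolactin and 70.4 before. Jak2, the kinase bound to the receptor, stood at 23.9 FPKM after and 15.5 before. Stat5a, the STAT5 gene needed for alveolar development, stood at 22.8 after and 33.9 before. Stat5b stood at 17.4 FPKM after and 20.5 before, so that both STAT5 genes were somewhat lower after the injection. Stat3, which mediates signals of the interleukin 6 family, stood at 64.6 FPKM after and 40.6 before. Ghr, the receptor gene of growth hormone, stood at 400.3 after and 603 before. Of the 15 genes of the receptor, JAK2 and STAT list, all compared, only Ptpn6 passed the threshold, at 16 FPKM after and 6.46 before. Ptpn6 encodes the phosphatase SHP-1 of blood cells and was lower by 2.12 in Ezh2 KO glands, as the lymphocyte markers were. The median difference of the list was 0.09, and it became -0.09 with a common sum of FPKM.

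Feedback inhibitors of the pathway were among the genes with the largest differences. Cish, which encodes the STAT5 target CIS, stood at 62.3 FPKM after prolactin and 6.64 before, a 9.39-fold higher level. Socs3, whose product blocks JAK2, stood at 80.2 after and 5.60 before, 14.3-fold higher. Socs2, an inhibitor best known for restraining growth hormone signalling, stood at 49.98 FPKM after and 11.5 before, 4.33-fold higher. The direction was the same in Ezh2 KO glands. Cish stood there at 51.1 FPKM after and 11.0 before prolactin, Socs3 at 58.8 and 6.17, and Socs2 at 51.2 and 9.52. Socs1, the remaining strong inhibitor of JAK2, stood at 9.24 FPKM after and 1.86 before in control glands but at 4.29 and 4.12 in Ezh2 KO glands. The other family members Socs4, Socs5, Socs6 and Socs7 differed by -0.23 to 0.16 in control glands, so the differences were uneven within the family.

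Further STAT5 targets differed unevenly. Cdkn1a, which encodes the cell cycle inhibitor p21, stood at 163 FPKM after prolactin and 27.05 before, 6.01-fold higher. Pim1, a survival kinase gene, stood at 23.0 after and 4.89 before, and Myc, a growth regulator, at 49.1 after and 13.6 before. Xbp1, a regulator of the secretory pathway, stood at 338 FPKM after and 145 before. Bcl2l1 and Mcl1, which encode inhibitors of cell death, had differences of 0.98 and 0.89, just under the threshold. Ccnd1, which encodes cyclin D1, stood at 35.6 after and 32.0 before, and Igf1, an insulin-like growth factor gene, at 39.0 after and 58.3 before. Of 24 genes on the list of SOCS feedback and STAT5 targets 23 were compared, and 8 were higher and none lower. The list's share of higher genes was thus 8 of 23, against 5.28% of all compared genes, and its median difference was 0.89, against 0.00 over all genes. Cdkn1a, Myc and Xbp1 are also on other lists below and are counted in each. Ezh2 KO glands had 8 higher and 2 lower, Pim2 and Tnfrsf13b, with a median of 0.18. The higher genes were not all the same. Socs1 and Pim1 differed by 0.05 and 0.83 in Ezh2 KO glands, short of the threshold. Pim3 and Bcl2l1 passed it there only, at 1.27 and 1.22.

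**Figure D2:**
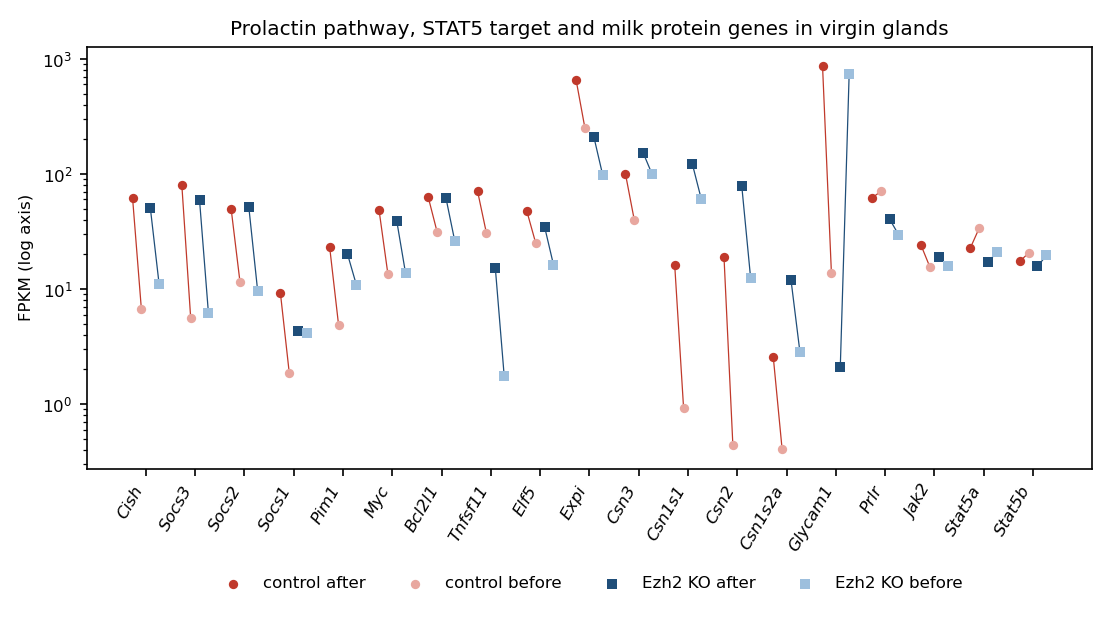
FPKM of prolactin pathway, STAT5 target and milk protein genes on a log axis, with circles for virgin control and squares for virgin Ezh2 KO glands, after prolactin in the dark colour and before it in the light colour, 1 pooled value per group. Cish, Socs3 and Socs2 were higher after prolactin in both genotypes, Prlr and the STAT5 genes lay within 1 log2 unit, and Glycam1 had opposite directions.

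Of 17 genes on the milk protein list 12 were compared, with 6 higher, Glycam1 among them, and none lower, against 5.28% and 1.9% of all genes. The median was 0.87 in control glands, and Ezh2 KO glands had 3 higher, 1 lower and a median of 0.53. Csn2, the gene of beta-casein, stood at 19.2 FPKM after prolactin and 0.443 before, 43.2-fold higher. Csn1s1, of alpha-S1-casein, stood at 16.3 after and 0.932 before, 17.4-fold higher. Csn1s2a, of an alpha-S2-like casein, stood at 2.57 after and 0.403 before. These caseins stood under 1 FPKM before the injection, where folds are imprecise. Csn3, of kappa-casein, started higher and stood at 101 FPKM after and 39.9 before, 2.53-fold higher. Its difference of 1.32 was close to the 1.35 of Csn1s2a. Expi, a whey acidic protein family gene of the gland, stood at 655 after and 248.8 before, 2.63-fold higher. In Ezh2 KO glands Csn2 stood at 79.4 FPKM after and 12.5 before, and Csn1s1 at 121 and 60.4, and both genes thus stood above the control glands at each time. Spp1, the osteopontin gene, stood at 3.36 FPKM after and 4.80 before in control glands, and Muc1, a mucin gene of the luminal surface, at 6.22 and 7.07, both with a difference below 0.

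The largest difference of the list was that of Glycam1, whose product is secreted into milk and is also made by the high endothelial venules of lymph nodes. It stood at 864 FPKM after prolactin and 13.7 before in control glands, 63.0-fold higher. It stood at 2.10 after and 743 before in Ezh2 KO glands, so it followed the lymph node markers in both genotypes, and their part in its difference was not tested. Genes of later milk secretion were not compared because both values were under 1 FPKM. Wap, the whey acidic protein gene, stood at 0.1 FPKM after prolactin and was listed at 0 before, and Lalba, which encodes alpha-lactalbumin, stood at 0.434 and 0.256. Of the genes of the milk fat globule membrane, Xdh stood at 56.1 FPKM after and 42.2 before, Btn1a1 at 7.23 and 5.17, and Mfge8 at 323 and 289. None of these 3 passed the threshold.

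Paracrine signals through which hormones act on neighbouring cells were mixed. Tnfsf11, the gene of RANKL, which carries the progesterone signal to alveolar progenitors, stood at 71.0 FPKM after prolactin and 30.7 before. Calca, the calcitonin gene, stood at 135 after and 66.8 before. Areg, the EGF receptor ligand downstream of estrogen, stood at 103 FPKM after and 64.0 before, a difference of 0.68. Esr1 and Pgr, the estrogen and progesterone receptor genes, were on the other side, with 6.31 FPKM after and 14.01 before for Esr1 and 7.04 after and 12.2 before for Pgr. Wnt4, a progesterone target, stood at 9.90 after and 12.1 before. Of 14 genes of this list 12 were compared, with 2 higher and 1 lower. The median was -0.02 and turned to 0.01 with a pseudocount of 0.1. Tnfsf11 stood at 15.4 FPKM after and 1.77 before in Ezh2 KO glands, and Calca at 6.93 and 2.81, both also higher after prolactin.

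Of 12 luminal and alveolar transcription factors 11 were compared, with 1 higher, 1 lower and a median of -0.47. Cebpb, which encodes a factor needed for alveolar growth, stood at 65.5 FPKM after prolactin and 31.9 before, and its difference of 1.01 was just past the threshold. Elf5, the alveolar master regulator, stood at 47.5 after and 25.1 before, a difference of 0.89, against 1.05 in Ezh2 KO glands. Gata3, a luminal regulator, stood at 28.9 FPKM after and 39.5 before, and Foxa1, the partner of the estrogen receptor, at 24.1 after and 34.7 before. Hey1, a Notch target, was the lower gene, at 4.27 FPKM after and 9.55 before.

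Immediate early and other rapidly induced regulators were higher in part, though several of the earliest genes were near their level before the injection. Fos stood at 28.2 FPKM after prolactin and 25.9 before, and Egr1 at 29.9 after and 21.9 before. Both are transcription factor genes that are induced within minutes and switched off soon after. Later AP-1 and nuclear receptor genes differed more. Nr4a3, which encodes an orphan nuclear receptor, stood at 13.3 FPKM after and 0.171 before, 77.8-fold higher. Maff, a small MAF factor gene, stood at 44.3 after and 3.54 before, and Fosl2, of the AP-1 family, at 54.3 after and 11.2 before. Cyr61, which encodes a matricellular protein, stood at 144 FPKM after and 24.7 before, and Junb at 69.8 after and 23.8 before. Of 31 listed genes 29 were compared, 14 were higher and none lower, and the median was 0.91, against 0.61 in Ezh2 KO glands. Dusp2, a MAP kinase phosphatase gene of immune cells, stood at 10.5 after and 0.836 before in control glands but was lower by 1.58 in Ezh2 KO glands, with the lymphocyte markers.

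Of 21 genes known to respond to glucocorticoids and metals, all compared, 13 were higher and none lower in each genotype, with a median of 1.45 in control glands and 1.39 in Ezh2 KO glands. Mt2, a metallothionein gene, stood at 5677 FPKM after prolactin and 133 before in control glands, 42.6-fold higher, and at 3609 after and 121 before in Ezh2 KO glands. Mt1 stood at 5688 after and 259 before in control glands and at 3528 and 185 in Ezh2 KO glands. The pair made up 1.62% of the summed FPKM of control glands after prolactin and 0.0635% before. Fkbp5, whose product is a chaperone partner that restrains the glucocorticoid receptor, stood at 158 FPKM after and 11.8 before in control glands and at 158 and 11.2 in Ezh2 KO glands. Cebpd, a transcription factor gene, stood at 98.4 FPKM after and 17.0 before in control glands, and Errfi1, an inhibitor of the EGF receptor, at 178 after and 50.5 before. Tsc22d3, which encodes the glucocorticoid-induced leucine zipper protein, stood at 293 after and 107 before, and the kinase gene Sgk1 at 131 and 45.4. Per1, at 23.4 FPKM after and 15.4 before, and Klf9, at 56.7 and 35.3, did not pass the threshold. Nr3c1, the glucocorticoid receptor gene itself, stood at 21.8 after and 39.2 before. Single genes differed between the genotypes. Gadd45b, a stress-induced gene, stood at 15.8 FPKM after and 4.86 before in control glands but at 12.2 and 15.9 in Ezh2 KO glands. The differences of Klf15 (0.29 in control, 1.00 in Ezh2 KO) and Sult1a1 (0.21 and 0.97) were smaller in control glands, and none of these differences between the genotypes was tested. Whether these differences came with prolactin or with surgery and handling cannot be told apart.

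Of 19 circadian clock genes 18 were compared, with 2 higher and none lower and a median of 0.20. Nfil3, an output repressor that is also induced by many stimuli, stood at 24.7 FPKM after prolactin and 6.38 before. Cry1, of the repressor limb of the clock, stood at 8.41 after and 2.92 before. The core activator gene Arntl stood at 3.09 FPKM after and 4.49 before, and Nr1d1 at 42.2 after and 68.1 before, both within the threshold.

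Of 30 cytokine, chemokine and NF-kB feedback genes 24 were compared, and 16 were higher and none lower, against 5.28% and 1.9% of all genes. The median was 1.31, and 6 were higher with a pseudocount of 5. Il6, an inducer of the acute phase response, stood at 4.88 FPKM after prolactin and 0.0884 before, 55.2-fold higher, and at 7.21 after and 0.105 before in Ezh2 KO glands. Cxcl1, a neutrophil attractant gene, stood at 5.82 after and 0.996 before, and Csf3, of the granulocyte growth factor, at 3.29 after and 0.259 before. Icam1, an adhesion molecule of activated endothelium, stood at 25.7 FPKM after and 5.38 before, and in Ezh2 KO glands at 79.5 and 15.2. These genes were higher in both genotypes. The monocyte attractant genes differed more in control glands. Ccl7 stood at 33.8 FPKM after and 4.32 before in control glands and at 7.98 and 4.40 in Ezh2 KO glands, and Ccl2 at 18.3 and 5.36 in control against 5.09 and 5.65 in Ezh2 KO glands. Tnf, at 0.521 FPKM after and 0.658 before, and Ptgs2, at 0.223 and 0.361, stayed under 1 FPKM and were not compared. Of the 24 genes 8 were higher and none lower in Ezh2 KO glands, against 2.92% and 4.17% of all genes, with a median of 0.57, and the difference between the genotypes was not tested.

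Of 20 listed neutrophil genes 17 were compared, and 12 were higher and none lower, with a median of 1.52, while Ezh2 KO glands had 9 higher, 1 lower (Selplg) and a median of 1.62. With a pseudocount of 5 the count in control glands was 4. S100a9, a calcium-binding protein gene abundant in neutrophils, stood at 90.6 FPKM after and 3.46 before in control glands, 26.2-fold higher, and at 182 and 10.3 in Ezh2 KO glands. S100a8, its partner, stood at 101 after and 16.4 before in control glands, and Retnlg, of the resistin family, at 27.9 after and 1.83 before. Mmp8, the neutrophil collagenase gene, stood at 4.46 FPKM after and 0.0307 before. Mmp9, a gelatinase gene, went the other way at 2.98 FPKM after and 6.79 before, a difference of -0.97 that passed the threshold with a pseudocount of 0.1, a common sum or a common upper quartile, and of -0.53 in Ezh2 KO glands. Selp and Sele, the selectin genes that capture neutrophils on activated vessel walls, stood at 20.1 FPKM after and 2.06 before and at 6.03 after and 0.412 before. The other 9 endothelial markers, among them Pecam1 at 83.9 after and 52.5 before, differed by -0.70 to 0.85.

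Acute phase genes followed in part, with 7 of 18 compared genes higher and none lower (20 listed, median 0.53), or 4 higher with a common sum of FPKM. Saa3, a serum amyloid gene expressed outside the liver, stood at 46.8 FPKM after prolactin and 1.38 before, 34.0-fold higher. Lcn2, which encodes an iron-scavenging lipocalin, stood at 351 after and 122 before, 2.87-fold higher. Hp, the haptoglobin gene, stood at 1175 FPKM after and 691 before, and C3, the complement gene, at 272 and 287, and neither passed the threshold. The Saa genes are close relatives, and how reads were divided between them is not stated. Interferon response genes had fewer counted members, with 2 of 19 higher, Cxcl10 and Ifit1 (5 with a pseudocount of 0.1). Their median was 0.15, which became -0.02 with a common sum. In Ezh2 KO glands none was higher or lower, and the median was -0.41. Ifit1 stood at 18.2 FPKM after and 7.11 before in control glands and at 3.46 and 4.96 in Ezh2 KO glands. Cxcl10, which is also an NF-kB target, stood at 17.4 FPKM after and 1.74 before in control glands and at 5.13 and 3.53 in Ezh2 KO glands.

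Of 22 genes of wound repair and matrix remodelling 19 were compared, with 10 higher and none lower (median 1.15), against 9 higher in Ezh2 KO glands (median 0.79). Ptx3, a pentraxin gene of tissue injury, stood at 79.6 FPKM after prolactin and 6.51 before, 12.2-fold higher, and at 10.6 and 4.69 in Ezh2 KO glands. Adamts1, a matrix protease gene, stood at 71.1 after and 8.39 before, and Plaur, the urokinase receptor gene, at 28.7 after and 4.43 before. Thbs1, the thrombospondin gene, stood at 158 after and 47.8 before. The matrix metalloproteinase Mmp2, at 59.9 after and 83.3 before, and Tgfb1, at 18.4 and 18.5, did not pass the threshold.

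Stress genes differed unevenly between lists, and their counts stand against 5.28% higher and 1.9% lower among all compared genes. In the heat shock list 1 of 15 genes was higher, Hspb1, a small heat shock protein gene at 178 FPKM after prolactin and 63.5 before, and the median was 0.28. Hspa1a and Hspa1b, the inducible and near-identical HSP70 genes, whose values are uncertain where reads fit both, stood at 4.00 and 13.3 after and 3.97 and 13.0 before. Of 16 genes of endoplasmic reticulum stress and the integrated stress response 4 were higher, Chac1, Atf4, Xbp1 and Trib3, with a median of 0.24. Atf4, the central transcription factor of that response, stood at 157 FPKM after and 65.2 before. The chaperone gene Hspa5 stood at 256 after and 200.3 before, within the threshold. Among 13 compared hypoxia genes (15 listed) Adm, at 54.0 after and 7.26 before, and Vegfa, at 104 and 30.5, were higher, and Pfkfb3, a driver of glycolysis, was lower at 64.3 after and 175 before. Their median was 0.08 and became -0.09 with a common sum.

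Of 24 genes of fatty acid and triglyceride synthesis, all compared, 6 were lower and 2 higher after prolactin, with a median of -0.58, and 9 had a difference above 0. With a common sum of FPKM 11 were lower. Fasn, which encodes fatty acid synthase, had 257 FPKM after and 617 before, 2.40-fold lower after. Acly and Acaca, which make the precursors for fatty acids, stood at 58.9 after and 152 before and at 56.5 after and 113 before, with Acaca just short of the threshold at -0.99. Srebf1, the transcription factor gene that drives this pathway in response to insulin, stood at 35.9 FPKM after and 77.0 before. Dgat2, of the last step of triglyceride synthesis, stood at 257 after and 588 before, and Scd2, a desaturase gene, at 27.6 after and 87.6 before. The share of lower genes was thus 6 of 24, against 1.9% of all compared genes. The 2 higher genes were Lpin1, whose product also acts as a coactivator of fatty acid oxidation, at 119 FPKM after and 46.4 before, and Acacb, whose product restrains oxidation, at 22.9 after and 8.99 before. In Ezh2 KO glands 2 genes were lower, Scd2 and Acly, and Fasn stood there at 275 FPKM after and 347 before (median -0.16).

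Of 21 genes of cholesterol synthesis and uptake 18 were compared, and 17 of them had a difference below 0, with 2 past the threshold, or 4 with a common sum of FPKM. Insig1, which holds the sterol sensor in the endoplasmic reticulum and is itself a target of that pathway, stood at 20.8 FPKM after prolactin and 65.4 before. Sc5d, an enzyme gene of the late pathway, stood at 24.4 after and 56.3 before. The median was -0.59 in control glands and -0.39 in Ezh2 KO glands.

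Genes of fat breakdown and fasting moved both ways. Adrb3, the main adrenergic receptor gene of mouse adipocytes, stood at 18.2 FPKM after prolactin and 99.8 before, 5.48-fold lower after. G0s2, whose product inhibits adipose triglyceride lipase, stood at 84.6 FPKM after and 396 before, 4.68-fold lower after. Pdk4, which turns off the use of glucose in mitochondria, stood at 229 after and 63.1 before. These 3 genes differed in the same direction and by at least 1 in Ezh2 KO glands. The lipases themselves differed little, with Pnpla2 at a difference of 0.42 and Lipe at 0.07. All 19 listed genes were compared, 5 were higher and 2 lower, and the median was 0.37, against 0.78 in Ezh2 KO glands.

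**Figure D3:**
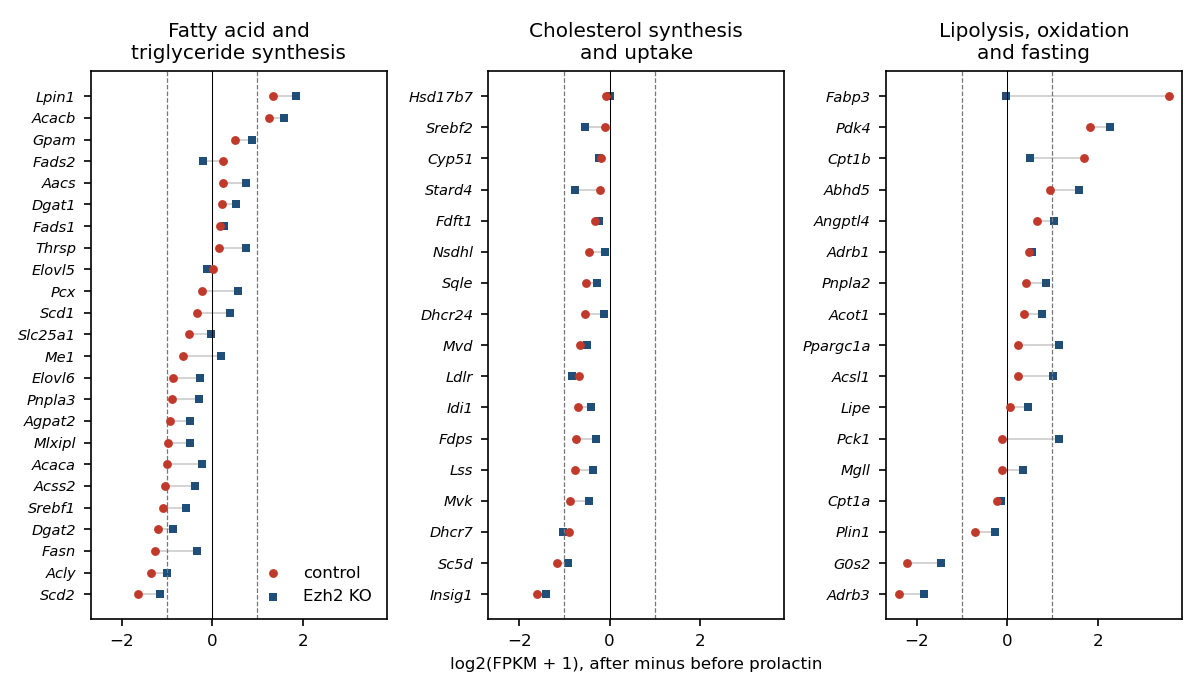
Difference of log2(FPKM + 1), after minus before prolactin, of the compared genes of 3 lipid gene lists that are reported here, with red circles for virgin control and blue squares for virgin Ezh2 KO glands, 1 pooled value each. Dashed lines mark a difference of 1 in each direction, and most synthesis genes lie left of 0 in control glands, with Scd2 farthest in the fatty acid list and Insig1 in the cholesterol list.

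Insulin and growth factor genes differed less. Of 19 compared insulin signalling and FOXO-responsive genes (20 listed) 1 was higher, Arrdc3, at 102 FPKM after prolactin and 43.0 before, with a median of 0.29. Irs1, which encodes the first substrate of the insulin receptor, stood at 13.2 after and 27.1 before, a difference of -0.99. Of 8 compared genes of the EGF family (13 listed) 1 was higher, Hbegf, at 3.38 after and 0.887 before, and the median was 0.13.

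Marker lists show which cell types the differences sat beside. The 15 luminal epithelial markers had 1 lower member, Esr1, none higher, and a median of 0.04, which turned to -0.15 with a common sum and -0.03 with a common upper quartile. Of the 9 compared basal and myoepithelial markers (11 listed) Krt17, at 22.1 FPKM after prolactin and 4.83 before, and Acta2, the smooth muscle actin gene, at 255 and 118, were higher, while Krt5 stood at 16.1 after and 14.2 before. All 9 fibroblast markers had a difference below 0 (median -0.39), with Pi16 lower at 79.4 FPKM after and 168 before. Macrophage markers had a median of -0.20 over 12 compared genes (13 listed), with Marco and Cd14 higher, and Marco was lower by 3.17 in Ezh2 KO glands. The luminal markers were thus the list closest to their level before the injection among these 4.

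Fat markers were split between white and brown fat. The 14 white adipocyte markers had a median of -0.13, with Cidec higher and Adrb3 and Acvr1c lower. Cidec was just past the threshold at 1.00, and no marker was higher with a common sum or a common upper quartile. In Ezh2 KO glands the median was 0.43, with 1 higher and 1 lower. The markers summed to 57517 FPKM after and 51847 before in control glands and to 60930 and 36885 in Ezh2 KO glands. Of 8 brown fat markers 4 were higher, Ucp1, Elovl3, Cidea and Dio2, with a median of 1.02. Ezh2 KO glands had 3 higher and none lower, with a median of 0.56. Ucp1 stood at 67.8 FPKM after and 2.003 before prolactin in control glands, 33.8-fold higher, but at 347 after and 210.0 before in Ezh2 KO glands. Fabp3, a fatty acid binding protein gene of muscle and brown fat, likewise stood at 19.6 after and 0.734 before in control glands and at 107 and 109 in Ezh2 KO glands. The before group of the control glands was thus the low one of 4 for both genes.

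Skeletal muscle markers were lower after prolactin in 8 of 10 compared genes (12 listed, median -1.76), and in 3 with a pseudocount of 5. Ckm, the muscle creatine kinase gene, stood at 0.291 FPKM after and 8.13 before, and Tnnt3, a fast troponin gene, at 0.354 after and 7.56 before. Acta1, the skeletal actin gene, went against the list, at 273 after and 13.0 before, and at 431 and 8.46 in Ezh2 KO glands. Without Acta1 the markers summed to 45.5 FPKM after and 104 before in control glands and to 53.8 and 75.5 in Ezh2 KO glands. The part of adjoining muscle in these values was not tested. Of 4 compared erythroid genes (6 listed) 2 were lower and none higher. Hbb-b2, a beta-globin gene, stood at 10.3 FPKM after and 36.8 before, and Alas2, of heme synthesis in red cells, at 12.6 and 26.5. Hba-a1 stood at 328 after and 536 before and did not pass the threshold. Globin genes have near-identical copies, so their values are uncertain.

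Of 16 compared cell division genes (18 listed) 15 had a difference above 0, with a median of 0.51. None passed the threshold, and 6 were higher with a pseudocount of 0.1. In Ezh2 KO glands 5 of them were lower (median -0.88), the direction of the lymphocyte markers in both genotypes. No PRC2 subunit or H3K27 demethylase gene passed the threshold among 12 compared (13 listed, median 0.20). Of 4 compared epidermal markers (10 listed) none passed it (median -0.14). The 16 ubiquitously expressed genes had a median of 0.18, with Actb, the beta-actin gene, higher at 1617 FPKM after prolactin and 747 before. Actb stood at 1120 after and 974 before in Ezh2 KO glands, a difference of 0.20.

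**Figure D4:**
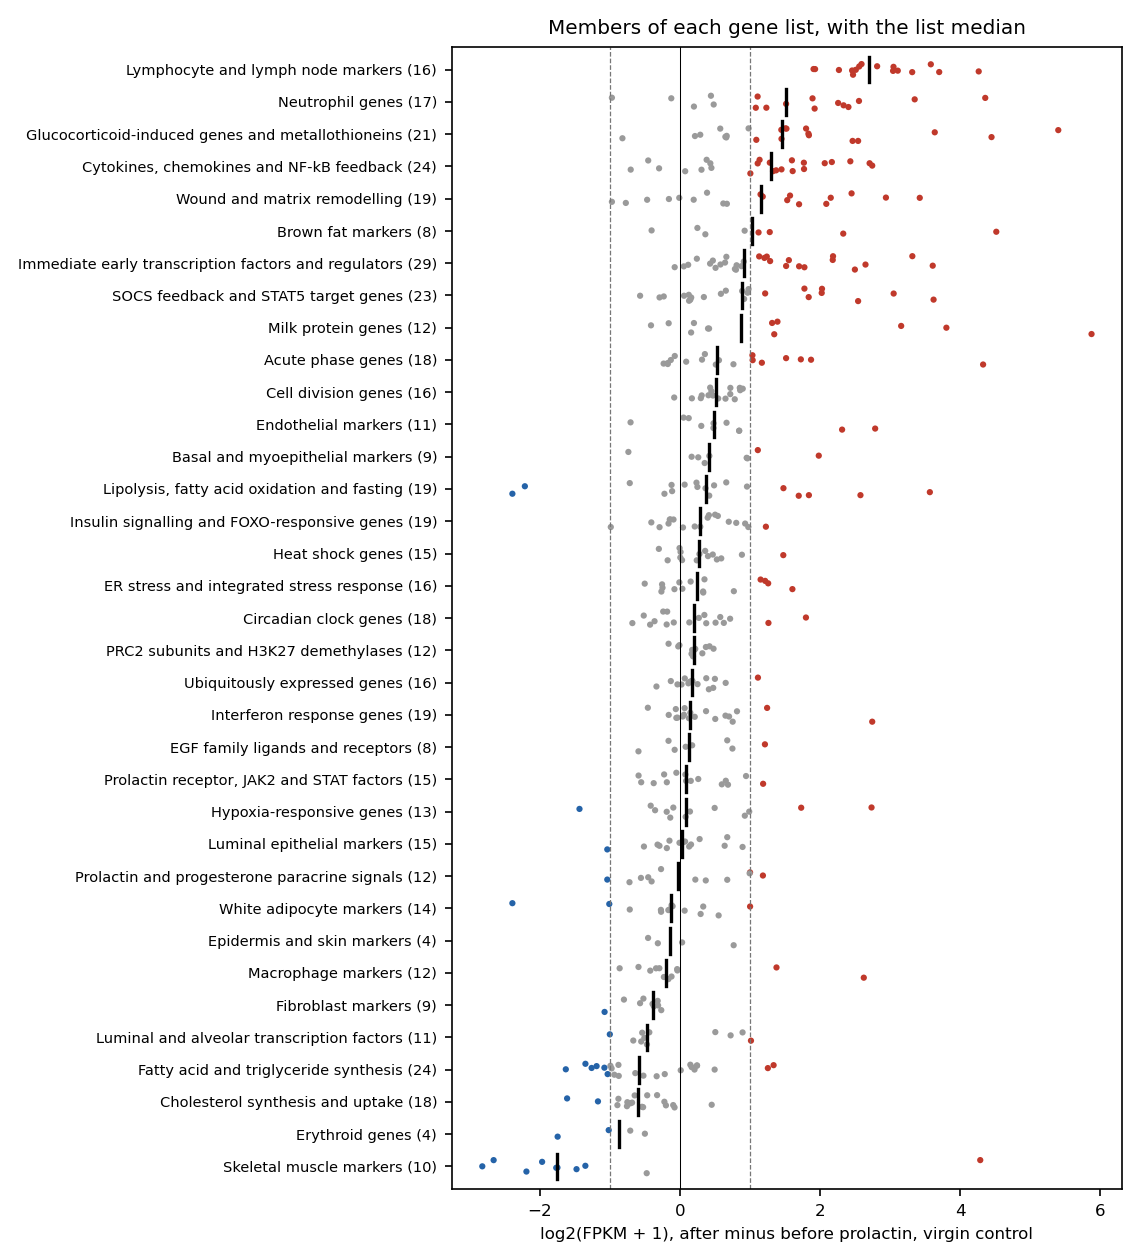
Each row is a gene list with the number of compared genes in brackets, each point is the difference of log2(FPKM + 1), after minus before prolactin, of 1 gene in virgin control glands, and the black bar is the list median. Lists run down the page by their median, with the lymphocyte markers at 2.70, the neutrophil genes at 1.52 and the glucocorticoid list at 1.45 at the top and the skeletal muscle markers at -1.76 at the bottom.

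The same comparison in Ezh2 KO glands rests on other libraries, so it shares no values with the control comparison. Over the same 12868 genes 376 (2.92%) were higher after prolactin and 536 (4.17%) lower, and with a common sum 269 were higher and 695 lower. Of the 679 genes that were higher in control glands, 256 were also higher in Ezh2 KO glands, 213 lay within 1 log2 unit and 210 were lower. The 256 shared genes were 37.7% of the control list and 68.1% of the Ezh2 KO list. Of the 245 genes that were lower in control glands, 93 were also lower in Ezh2 KO glands, 144 lay within the threshold and 8 were higher. The 93 were 38.0% of the control list and 17.4% of the Ezh2 KO list.

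Across the 12868 genes, which are not independent replicates, the differences in the 2 genotypes had a Pearson r of 0.16. Without the 218 genes that passed the threshold in opposite directions it was 0.51, a value raised by leaving out those genes. The opposite genes included the lymphocyte markers, whereas Cish, Socs3, Fkbp5, Mt2 and S100a9 were higher in both genotypes. Without those 218 genes the control comparison had 469 higher and 237 lower genes. With 1 value per group no difference between the genotypes could be tested.

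**Figure D5:**
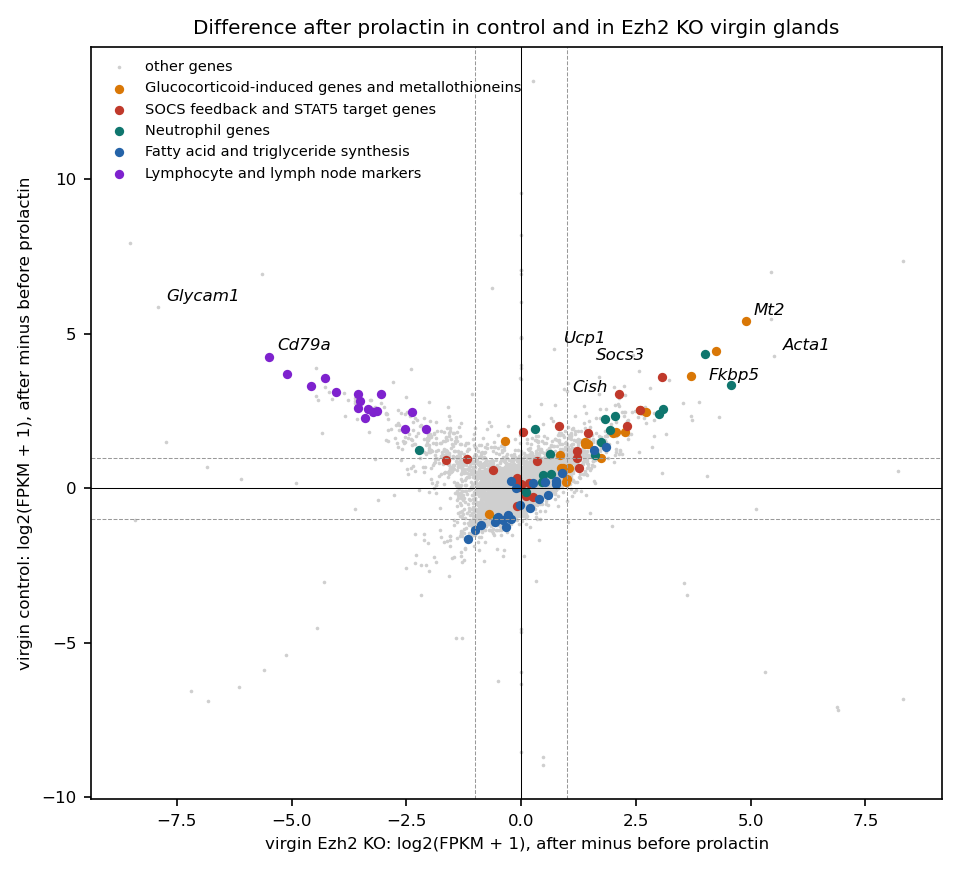
Difference of log2(FPKM + 1), after minus before prolactin, in virgin control glands on the vertical axis and in virgin Ezh2 KO glands on the horizontal axis, for 12868 genes, with 5 gene lists in colour and dashed lines at a difference of 1 in each direction. Mt2, Fkbp5, Socs3 and Cish lie at the upper right, and the lymphocyte markers with Cd79a and Glycam1 lie at the upper left, higher in control and lower in Ezh2 KO glands.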

How the data were processed

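Poly(A) RNA from whole mammary tissue was turned into libraries with a TruSeq kit, per the labels' protocols, and strand is not stated there. FPKM values were deposited by the authors as 1 column per group. The way in which the pair of libraries was merged is not stated in the labels or files used here. Per the submitters' processing notes, the build was mm9 and the tools were Cufflinks and Cuffdiff, the aligners TopHat, Bowtie and BWA, the read tools FastQC, Trim Galore and CASAVA, and HOMER, with no versions and no role for each. Read depth is unknown. Steps of single reads were sought in 965 genes under 0.05 FPKM in both control groups. No ratio of their values was shared by more than 4.97% of them, so whole reads were not recoverable.

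Genes with at least 1 FPKM in either control group were kept, a pseudocount of 1 was added before log2, and differences of at least 1 in size were counted. A test per gene (limma) had been written for values per library and could not be run on 1 value per group. The comparison, the 35 gene lists and the threshold were chosen with earlier results of these data known, so list counts and medians are descriptions. Some genes are on several lists and count in each, so the list counts are not separate. Named genes were the prolactin pathway, Csn2, Wap, Ezh1 and Ezh2, then the 15 highest and 15 lowest protein-coding genes with at least 5 FPKM in either group, then up to 5 members of each list with the largest differences, with other members where a list is described. Some genes chosen in this way are not reported here. Gene types and promoters are from RefSeq tables on GRCm38.p6, to which 20004 genes matched on their symbol, 2311 on a synonym and 237 on neither. The files use mm9, so the coordinates of the promoter windows are those of RefSeq and not of the files. Scripts ran under Python 3.11.15 with pandas 2.3.3, matplotlib 3.10.9 and NumPy 2.4.6, and the counting functions were tested on simulated data. Alternatives tried were 2 other pseudocounts (0.1 and 5), 2 other filters (none, and 5 FPKM), 3 rescalings, protein-coding genes alone, a threshold of 2 and, chosen after seeing the data, leaving out the genes opposite in Ezh2 KO glands.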

Additional observations from a re-analysis of the deposited data

Results flagged for a closer look

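For 10 named genes the difference after prolactin had opposite signs in control and Ezh2 KO glands, each by 1 log2 unit or more. With 1 pooled value per group, the difference between the genotypes was not tested. Glycam1 differed by 5.88 in control glands and by -7.91 in Ezh2 KO glands. The B cell genes Cd79a (4.27 in control, -5.48 in Ezh2 KO), Cd79b (3.70 and -5.09), Ms4a1 (3.32 and -4.57) and Faim3 (3.89 and -4.47) had the same pattern. So did the lymphocyte homing gene Ccr7 (3.58 in control, -4.27 in Ezh2 KO) and Ltb, of the lymphotoxin family (3.11 and -4.03). Marco, a macrophage scavenger receptor gene, differed by 2.63 in control and -3.17 in Ezh2 KO glands, Dusp2 by 2.65 and -1.58, and Ptpn6 by 1.19 and -2.12. The summed lymphocyte and lymph node markers moved with all 10 genes, at 373 FPKM after and 41.3 before prolactin in control glands and 29.6 after and 425 before in Ezh2 KO glands, and their part was not tested.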

How the results depend on the processing

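No paired analysis was possible because the table holds 1 pooled value per group, and leaving out each replicate in turn was not run for the same reason. In control glands the count of higher genes was 321 with a pseudocount of 5 and 161 with a threshold of 2 log2 units, against 679. The count of lower genes was 418 with a pseudocount of 0.1, 104 with a pseudocount of 5, 370 with a common sum of FPKM and 44 with a threshold of 2, against 245. In Ezh2 KO glands higher genes numbered 222 with a pseudocount of 5 and 83 with a threshold of 2, against 376, and lower genes 185 with a pseudocount of 5, 145 with a threshold of 2 and 326 without the genes opposite in the genotypes, against 536. A larger pseudocount or threshold takes fewer genes by its construction. The other alternatives left these 4 counts within 1.5 times. Of 110 named genes past the threshold, 85 stayed past it under each of the 5 pseudocount and scaling alternatives, and none of the 185 named genes that were compared was reversed. Of the 35 list medians, 5 took the opposite sign under at least 1 alternative, and these are given with their lists. Depth and the spread between mice are unknown.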

Other observations

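Single genes outside the lists, chosen after their values were seen, are given as values. Apold1, an immediate early gene of endothelium, stood at 51.2 FPKM after and 4.45 before prolactin in control glands and 35.7 and 4.22 in Ezh2 KO glands, Sox17 at 21.7 and 3.10 in control and 24.3 and 4.55 in Ezh2 KO glands, and Rbp7 at 633 and 100.3 in control and 935 and 144 in Ezh2 KO glands. B4galt1, which encodes the catalytic subunit of lactose synthase, stood at 179 FPKM after and 34.9 before in control glands and at 148 and 30.5 in Ezh2 KO glands. Tph1, of serotonin synthesis, stood at 18.8 after and 7.73 before in control glands and at 20.3 and 4.07 in Ezh2 KO glands. Hmox1, the heme oxygenase gene, stood at 263 after and 27.4 before in control and 53.9 and 27.6 in Ezh2 KO glands, Alas1 at 247 and 70.6 in control and 196 and 62.8 in Ezh2 KO glands, and the zinc transporter gene Slc39a14 at 19.4 and 4.53 in control and 19.2 and 6.28 in Ezh2 KO glands.

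On the lower side, Cebpa, a regulator of fat cells, stood at 91.9 FPKM after and 289 before prolactin in control glands and at 99.4 and 235 in Ezh2 KO glands. Igfbp5, which binds insulin-like growth factors, stood at 91.6 after and 269 before in control glands and at 122 and 261 in Ezh2 KO glands. Prrx1 (10.2 after, 30.3 before), Hoxc6 (3.79 and 14.7), Wnt5a (3.44 and 10.9) and Fbn1 (10.9 and 32.3) each stood lower in control glands, and their differences in Ezh2 KO glands were -1.08, -1.61, -0.99 and -1.10. The mast cell protease genes Cpa3 (14.95 after, 34.2 before) and Cma1 (23.8 and 49.5) differed by -1.14 and -1.03 in control glands and by -1.10 and -1.07 in Ezh2 KO glands. Of 81 ribosomal protein genes 79 had a difference above 0 in control glands (median 0.41) and 12 in Ezh2 KO glands (median -0.09), and none passed 1 log2 unit in either. The small RNA gene Mir762 stood at 9261 FPKM after prolactin in control glands and was listed at 0 before, and at 1836 and 1542 in Ezh2 KO glands.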
